A study of Mus musculus with 18 samples.

Results

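The lysosomal set described here holds 47 mouse genes, chosen by name: 11 cathepsins and legumain, 15 other hydrolases and activators, 4 membrane proteins, the transcription factors Tfeb and Tfe3, and 15 subunits of the proton pump. Of these, 45 had a value and entered a test over 9707 genes, while Glb1 and Atp6v0c are not analysed here because no usable row was listed for them. RNA-seq covered thioglycolate-elicited peritoneal macrophages of mice on a C57BL/6 background with unmodified Tlr4 (TLR4-WT) or with a CRISPR/Cas9 knock-in that replaces 1 lysine of the receptor's cytoplasmic TIR domain by arginine, TLR4-K730R or TLR4-K810R. Cells of each genotype were left as control or given 100 ng/ml lipopolysaccharide (LPS) for 6 h, which made 6 groups of 3 libraries. Sex and age of the mice, and whether the 3 libraries of a group came from separate animals, are not given in the sources used here, so p-values measure the spread between these libraries, which may be technical.

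Lysosomes are the acidic organelles in which macrophages digest engulfed microbes, dead cells and their own worn components. Cathepsins and glycan- and lipid-cleaving hydrolases do the digestion, and most of them need the low pH that the vacuolar ATPase maintains. In that pump the V1 sector hydrolyses ATP in the cytosol and the V0 sector carries protons through the membrane. Tfeb and Tfe3 are related transcription factors that bind E-box letters, known as the CLEAR element, in the promoters of many lysosomal genes. LPS is the outer-membrane lipid of gram-negative bacteria and the ligand of TLR4. Whether the receptor's lysines alter how macrophages set these genes after LPS is the question the groups allow to be asked.

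RefSeq promoter windows of GRCm38.p6, from 250 bases before to 50 bases after a start, were found for 39 of the 47 genes, 49 windows in all. The E-box core CACGTG, which reads the same on both strands, occurred in 12 of these windows, each of a different gene, and in 7.15% of the 32851 windows of all genes. The longer TCACGTGA, which contains that core and is also its own reverse complement, occurred in windows of 7 of the genes and in 0.974% of all windows. The stretches around it are shown because these letters form the core of the CLEAR element, and its letters are in capitals.
The start site of the window lies inside the annotated gene body for 6 of the 7, by 13165 bases for Atp6v0e, by 900 for Ctsa, 446 for Atp6v1a, 211 for Ctsd, 120 for Gla and 62 for Mcoln1, and 17 bases outside it for Atp6v0d1. The whole stretch shown lies inside the gene body for Atp6v0e, Ctsa, Ctsd and Atp6v1a. The windows of Ctsa and Gla each hold 2 copies, of which the first is shown.
Ctsd (chr7:142387895-142387950, minus strand): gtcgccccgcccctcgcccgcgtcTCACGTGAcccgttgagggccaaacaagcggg
Mcoln1 (chr8:3500449-3500504, plus strand): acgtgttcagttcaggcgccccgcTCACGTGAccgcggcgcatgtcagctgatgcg
Ctsa (chr2:164833736-164833772, plus strand): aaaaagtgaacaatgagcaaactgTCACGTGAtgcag
Gla (chrX:134601202-134601255, minus strand): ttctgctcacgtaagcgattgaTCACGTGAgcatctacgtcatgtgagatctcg
Atp6v0d1 (chr8:105566051-105566078, minus strand): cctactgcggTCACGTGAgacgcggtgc
Atp6v0e (chr17:26676388-26676415, plus strand): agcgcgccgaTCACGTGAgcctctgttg
Atp6v1a (chr16:44139360-44139415, minus strand): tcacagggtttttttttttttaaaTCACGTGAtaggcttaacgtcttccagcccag
After LPS, each of these 7 genes fell in at least 2 of the 3 genotypes on the deposited scale, on which 23.9%, 26.5% and 19.7% of all genes tested fell in TLR4-WT, TLR4-K730R and TLR4-K810R. With median-of-ratios scaling, which evens out shifts of a whole library, 4 of them did (14.2%, 13.5% and 11.7% of all genes), while Ctsa, Gla and Atp6v0e passed in none. These shares are for single genotypes, and the share of all genes that fell in at least 2 was not counted.

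The deposited values are FPKM (fragments scaled by transcript length and by library size) of transcript events. Each gene was given the sum over its first exons or that over its last exons, whichever was larger in that library, and the coordinates given with a gene are those of its body in GRCm38. The set was among the most abundant transcripts of these cells: 38 of the 45 genes ranked within the 1000 highest of the 9707 tested genes in TLR4-WT control macrophages, with Psap at rank 4, Ctsd at rank 5 and Ctss at rank 7. After LPS 32 of the 45 did. The 45 genes together took 9.29% to 10.3% of all summed gene values in the 9 control libraries and 5.15% to 6.27% in the 9 LPS libraries, so the ranges did not overlap. Without Psap, Ctsd, Ctss and Ctsb the share was 3.25% to 3.69% in control and 2.2% to 2.56% after LPS. Of 8 markers of macrophages 7 were listed, and they summed to 11633 to 14785 FPKM in the control libraries and to 7289 to 10057 FPKM after LPS, which did not overlap. Most of that was Lyz2, at 10375 to 13291 FPKM in control and 5944 to 8754 FPKM after LPS. Mertk was lower after LPS (19.9 to 32.2 and 5.03 to 15.9 FPKM) and Fcgr1 higher (26.7 to 51.7 and 160 to 412 FPKM), while Csf1r (360 to 538 and 277 to 422 FPKM), Cd68 (528 to 771 and 387 to 579 FPKM) and Adgre1 (148 to 253 and 205 to 271 FPKM) overlapped. The part of these markers in the LPS differences was not tested. Cd14 was listed at 0 in 17 of the 18 libraries, and a gene listed at 0 may still be expressed. The 5 markers of T cells summed to at most 0.548 FPKM and the 5 of B cells to at most 3.66 FPKM in a library. Tnf, an early LPS target, rose by 3.96, 3.93 and 4.28 and Il1b by 8.85, 8.31 and 8.15 on the log2 scale in TLR4-WT, TLR4-K730R and TLR4-K810R, while Tlr4 itself, whose level does not show a replaced codon, gave -1.03, -1.0 and -1.23. Nos2, Cxcl10 and Il6, other LPS targets, also rose in all 3 genotypes. Nos2 measured 199 to 423 FPKM in TLR4-WT LPS, 123 to 441 FPKM in TLR4-K730R LPS and 58.7 to 78 FPKM in TLR4-K810R LPS, and Cxcl10 450 to 907, 233 to 913 and 192 to 208 FPKM. The difference from TLR4-WT was -2.20 for Nos2 in TLR4-K810R (adjusted p = 0.0237 from limma) and -1.83 for Cxcl10 (adjusted p = 0.0334), groups that did not overlap but were not called, and Il6 held 16 to 48.3, 16.4 to 74.9 and 11.5 to 17.3 FPKM. Fewer cells of a type and less RNA per cell cannot be told apart in bulk samples.

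After LPS 2 libraries stood apart from their labels. By the mean absolute log2 difference over the 9707 genes, TLR4-WT LPS replicate 3 lay 0.364 and 0.399 from the other TLR4-WT LPS libraries but 0.325 and 0.326 from TLR4-K730R LPS replicates 1 and 2, and 0.316 to 0.348 from the TLR4-K810R LPS libraries. The library labelled TLR4-K730R LPS replicate 3 lay 0.351 and 0.376 from its own group but 0.321 and 0.294 from TLR4-WT LPS replicates 1 and 2. Each control library was nearest to a library of its own group. The LPS and genotype results are therefore also given without both libraries, a choice made after seeing the data. Since they were picked for lying nearer to another genotype, leaving them out narrows the spread within a group and widens the differences between genotypes by its construction, so values between genotypes without them are descriptions and not tests.

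On the deposited scale, LPS lowered more than it raised of the set. In TLR4-WT macrophages 26 of the 45 genes were lower and 4 higher after LPS at an adjusted p below 0.01, where 23.9% of all genes tested were lower and 10.4% higher. In TLR4-K730R, 27 were lower and 3 higher, beside 26.5% and 9.32% of all genes. In TLR4-K810R, 27 were lower and 6 higher, beside 19.7% and 9.08% of all genes. The median log2 difference of the 45 genes was -0.67, -0.68 and -0.67 in the 3 genotypes, in that order, and that of all genes tested was -0.28, -0.36 and -0.26. These log2 differences are of log2(FPKM + 1), from limma with all 6 groups in one fit. Without the 2 libraries that stood apart, 25 genes were lower and 3 higher in TLR4-WT (24.9% and 10% of all genes), and 29 lower and 3 higher in TLR4-K730R (22.9% and 8.85%). Atp6v1e1 and Atp6ap2 then lost their call in TLR4-WT, and Ctss and Lamp2 passed as lower in TLR4-K730R.

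The direction of many small differences rests on the scaling. Median-of-ratios scaling moved the median of all genes to -0.02, -0.04 and -0.04 in the order TLR4-WT, TLR4-K730R and TLR4-K810R, and that of the set to -0.35, -0.27 and -0.40. With it, 17 of the 45 genes were lower and 4 higher in TLR4-WT (14.2% and 15.4% of all genes), 16 lower and 7 higher in TLR4-K730R (13.5% and 15.3%), and 17 lower and 8 higher in TLR4-K810R (11.7% and 12.3%). Without this scaling 23 genes were lower in all 3 genotypes, and with it 15 of these: Asah1, Atp6v0a1, Atp6v0d1, Atp6v0d2, Atp6v1b2, Atp6v1c1, Ctsd, Gusb, Hexa, Lgmn, Lipa, Man2b1, Manba, Psap and Tfeb. The shares of all genes given above are for single genotypes, and the share lower in all 3 was not counted. Acp5, Atp6v1e1 and Ctsc were higher in all 3 genotypes with and without it, and Atp6v0b joined them with it. On the deposited scale 10 others, Atp6v0b among them, were called in 1 or 2 genotypes. There 9 were called in none (Atp6v1d, Atp6v1h, Ctsk, Ctsl, Ctss, Ctsz, Lamp2, Tfe3 and Tpp1). Median-of-ratios scaling made Tfe3 and Ctsz pass as higher in TLR4-K810R and Ctsk in TLR4-K730R.

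**Figure D1:**
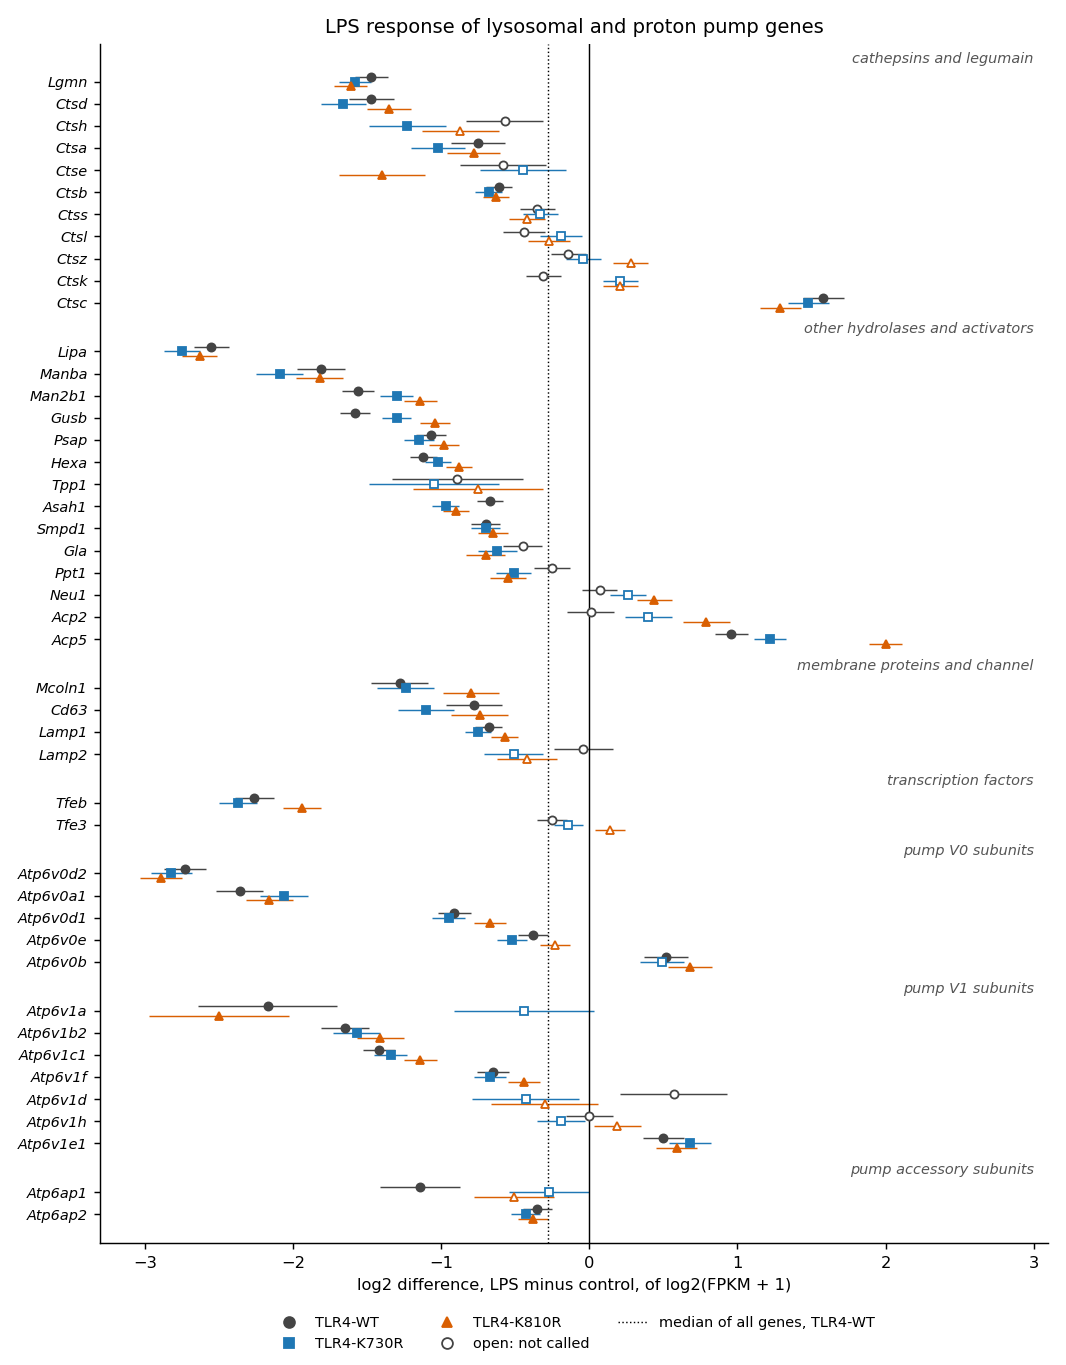
Log2 difference of log2(FPKM + 1), LPS minus control, of the 45 genes by role, with bars of 1 standard error from limma, 1 marker per genotype, filled where called (adjusted p below 0.01). Most points lie to the left of the dotted line, the median of all genes in TLR4-WT (-0.28). Ctsc, Acp5, Atp6v1e1 and Atp6v0b lie to the right of 0 in all 3 genotypes, as do Acp2 and Neu1, at 0.01 and 0.07 in TLR4-WT. With median-of-ratios scaling the points shift to the right, and genes near 0 such as Tfe3 in TLR4-WT and TLR4-K730R change sign.

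Of the transcription factors Tfeb fell in all 3 genotypes, while Tfe3 was called in none. Tfeb (chr17:47737030-47792419, plus strand), which drives lysosomal gene expression when it enters the nucleus, measured 34.1, 43.4 and 42 FPKM in the 3 TLR4-WT control libraries and 7.83, 6.76 and 7.92 FPKM after LPS. In TLR4-K730R its values were 37.1, 38.8 and 38 FPKM in control and 6.14, 6.46 and 6.99 FPKM after LPS, and in TLR4-K810R 43, 36.7 and 29.7 FPKM and 9.27, 8.96 and 7.75 FPKM. All 9 LPS libraries lay below all 9 control libraries. Tfeb fell, with log2 differences of -2.26, -2.37 and -1.94 in TLR4-WT, TLR4-K730R and TLR4-K810R (SE 0.13, limma's adjusted p at most 8.28e-09). Tfe3, its relative on the X chromosome (chrX:7762560-7775202, plus strand), measured 54.8, 56.7 and 65.1 FPKM in TLR4-WT control and 47, 51.8 and 49.3 FPKM after LPS. For Tfe3 in TLR4-K730R the libraries held 54.4, 54.6 and 52.1 FPKM and 45, 48.7 and 52 FPKM, and in TLR4-K810R 44.3, 43.7 and 49.5 FPKM and 47.5, 48.2 and 56 FPKM. Its LPS libraries lay just below the control libraries in TLR4-WT and TLR4-K730R and overlapped with them in TLR4-K810R. The log2 differences of Tfe3 were -0.25, -0.14 and 0.14 (SE 0.10), none of them called, and with median-of-ratios scaling 0.08, 0.26 and 0.41, of which the last was called (adjusted p = 0.00919 from limma). At control level both factors were within the same order of magnitude, and after LPS the highest Tfeb value (9.27 FPKM) was below the lowest Tfe3 value (45 FPKM), on the FPKM scale that is corrected for length.

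Reads of Tfeb were spread over several first exons, and the split varied between libraries of 1 group. The first exon at chr17:47785720-47786196 held 8.86, 22.1 and 15.3 FPKM in TLR4-WT control and 10.2, 7.98 and 0.375 FPKM in TLR4-K810R control, while the Tfeb totals varied by much less. No comparison of single first exons was therefore made. Mitf and Tfec, the other members of this factor family, were not called in any genotype (log2 differences 0.30, 0.05 and 0.11 and 0.20, 0.29 and 0.22), although Mitf was called higher in TLR4-WT with median-of-ratios scaling.

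Among the 11 cathepsins and legumain, LPS lowered 4 and raised 1 in TLR4-WT, and lowered 5 and raised 1 in each mutant. Taken as TLR4-WT, TLR4-K730R, TLR4-K810R, 23.9%, 26.5% and 19.7% of all genes fell and 10.4%, 9.32% and 9.08% rose. Under median-of-ratios scaling 2, 2 and 3 of the 11 were lower and 1, 2 and 2 higher. All genes then gave 14.2%, 13.5% and 11.7% lower and 15.4%, 15.3% and 12.3% higher. The scaled lower counts of TLR4-WT and TLR4-K730R were near these shares. Legumain and cathepsin D fell in all 3 genotypes. Lgmn (chr12:102394084-102439813, minus strand), which cleaves after asparagine and matures other cathepsins, measured 1113, 1011 and 1168 FPKM in TLR4-WT control and 403, 405 and 374 FPKM after LPS. For Lgmn in TLR4-K730R the values were 1155, 1137 and 1099 FPKM and 334, 357 and 451 FPKM, and in TLR4-K810R 1266, 1264 and 1211 FPKM and 430, 402 and 389 FPKM. The groups did not overlap, and the log2 differences were -1.47, -1.58 and -1.61 (SE 0.11, limma's adjusted p at most 2.07e-08). Ctsd (chr7:142375911-142388038, minus strand), an aspartic protease whose promoter stretch is shown above, was one of the 5 highest of all genes tested in TLR4-WT control, with 5016, 4743 and 5108 FPKM, and held 1704, 1834 and 1841 FPKM after LPS. For Ctsd in TLR4-K730R they were 5329, 5275 and 8146 FPKM and 1723, 2008 and 2092 FPKM, and in TLR4-K810R 5316, 5622 and 5527 FPKM and 2234, 2306 and 1952 FPKM. The third TLR4-K730R control library stood above its group, and no LPS library reached the control range. Ctsd fell, with log2 differences of -1.47, -1.66 and -1.35 (SE 0.15, limma's adjusted p at most 2.25e-06).

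Cathepsin C went the other way. Ctsc (chr7:88278085-88310888, plus strand), the dipeptidyl peptidase that activates granule serine proteases, measured 85.3, 91.1 and 75 FPKM in TLR4-WT control and 285, 259 and 216 FPKM after LPS. For Ctsc in TLR4-K730R the libraries held 67.5, 69.4 and 74.8 FPKM and 181, 171 and 254 FPKM, and in TLR4-K810R 77.9, 76.7 and 79.7 FPKM and 194, 196 and 186 FPKM. Every LPS library lay above every control library. Ctsc rose by 1.58, 1.48 and 1.29 on the log2 scale (SE 0.14, limma's adjusted p at most 1.56e-06), which rests on its first-exon sums (mean 147 FPKM), since its last-exon sums averaged 2.79 FPKM and gave -0.20 in TLR4-K810R. Ctsb, a cysteine cathepsin with 2998 to 3454 FPKM in the control libraries, fell to 1840 to 2226 FPKM (log2 differences -0.61, -0.68 and -0.63, all called, and none called with median-of-ratios scaling). Ctss (3909 to 4966 FPKM in control and 2886 to 3880 FPKM after LPS), which trims the invariant chain of MHC class II, gave -0.35, -0.33 and -0.42 and was not called. Ctsl, Ctsz and Ctsk, the last best known from osteoclasts, were not called in any genotype either, with log2 differences between -0.44 (Ctsl in TLR4-WT) and 0.28 (Ctsz in TLR4-K810R). With median-of-ratios scaling Ctsz in TLR4-K810R (0.55) and Ctsk in TLR4-K730R (0.62) were called higher. Ctsa, the carboxypeptidase that protects Neu1 and Glb1, fell in all 3 genotypes (-0.75, -1.02 and -0.78), and Ctsh, an aminopeptidase, in TLR4-K730R (-1.23). With median-of-ratios scaling neither passed.

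Ctse, an aspartic protease of epithelia and some immune cells, was the lowest of the cathepsins, at 1.21 to 5.37 FPKM in control and 0.6 to 2.24 FPKM after LPS, and was called in TLR4-K810R alone (log2 difference -1.40, SE 0.29, limma's adjusted p = 0.00116). The difference of this response from that of TLR4-WT was not called (log2 difference -0.82, adjusted p = 0.418 from limma). The 6 intestinal epithelial markers examined, all listed, summed to 10.3 to 48.7 FPKM in TLR4-K810R control and 0.127 to 4.74 FPKM in TLR4-K810R LPS, to 6.56 to 32.3 and 7.56 to 11.3 FPKM in TLR4-K730R, and to 0.118 to 0.594 and 0 to 7.17 FPKM in TLR4-WT. In TLR4-WT control 5 of the 6 were at 0, all but Lgals4. Their part in the Ctse difference was not tested.

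Of the 14 other hydrolases and activators with a value, 8 fell and 1 rose in TLR4-WT, 10 fell and 1 rose in TLR4-K730R, and 10 fell and 3 rose in TLR4-K810R. In that order, 23.9%, 26.5% and 19.7% of all genes fell and 10.4%, 9.32% and 9.08% rose. Median-of-ratios scaling gave 7 lower in each genotype and 1, 3 and 3 higher. With it, 14.2%, 13.5% and 11.7% of all genes were lower and 15.4%, 15.3% and 12.3% higher. Acid lipase led the falls. Lipa (chr19:34492318-34527474, minus strand), which frees cholesterol and fatty acids from engulfed lipoproteins, measured 553, 617 and 512 FPKM in TLR4-WT control and 95.8, 97.2 and 90.3 FPKM after LPS. For Lipa in TLR4-K730R the values were 591, 574 and 596 FPKM and 102, 86.2 and 73.1 FPKM, and in TLR4-K810R 553, 544 and 564 FPKM and 93, 78.1 and 96.5 FPKM. The lowest control library stood far above the highest LPS library. Lipa fell, with log2 differences of -2.55, -2.75 and -2.63 (SE 0.12, limma's adjusted p at most 1.2e-10), and in TLR4-WT its rank among all genes by level moved from 63 to 549.

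3 glycosidases fell together. Manba (chr3:135485611-135571404, plus strand), a mannosidase for beta-linked mannose, measured 17.9, 23.9 and 18.3 FPKM in TLR4-WT control and 5.53, 4.85 and 4.54 FPKM after LPS. For Manba in TLR4-K730R they were 24.9, 17.5 and 21.3 FPKM and 4.87, 3.05 and 4.83 FPKM, and in TLR4-K810R 22, 19.7 and 20 FPKM and 4.82, 5.42 and 5.11 FPKM. No LPS value reached a control value, with log2 differences of -1.81, -2.09 and -1.82 (SE 0.16). Man2b1 (chr8:85083270-85098282, plus strand), the mannosidase for alpha-linked mannose, held 244, 214 and 235 FPKM and, after LPS, 74.4, 74.2 and 84.8 FPKM in TLR4-WT. For Man2b1 in TLR4-K730R the libraries held 233, 228 and 211 FPKM and 81.6, 90.3 and 99.2 FPKM, and in TLR4-K810R 190, 185 and 218 FPKM and 99.7, 85.9 and 81.1 FPKM. Control and LPS libraries were again apart, with log2 differences of -1.56, -1.30 and -1.14 (SE 0.11). Gusb (chr5:129989011-130003049, minus strand), beta-glucuronidase, measured 221, 222 and 230 FPKM in TLR4-WT control and 70.5, 69.5 and 84.6 FPKM after LPS. For Gusb in TLR4-K730R the values were 210, 195 and 196 FPKM and 80.2, 81 and 80.9 FPKM, and in TLR4-K810R 218, 225 and 224 FPKM and 120, 101 and 102 FPKM. Its control libraries lay between 195 and 230 FPKM, and the LPS libraries of TLR4-K810R were the highest of the 9. The log2 differences of Gusb were -1.58, -1.30 and -1.04 (SE 0.10), and limma's adjusted p for Manba, Man2b1 and Gusb was at most 5.31e-07 in each genotype.

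Psap, Hexa, Asah1 and Smpd1 fell in all 3 genotypes. Psap, the precursor of the saposins that present lipids to these enzymes and the highest gene of the set, went from 7716 to 8756 FPKM to 3567 to 4569 FPKM (log2 differences -1.07, -1.15 and -0.98). Hexa, a subunit of hexosaminidase, gave -1.12, -1.02 and -0.88, the acid ceramidase Asah1 -0.67, -0.97 and -0.90 and the acid sphingomyelinase Smpd1 -0.70, -0.70 and -0.65, all called in each genotype. Gla, the galactosidase whose promoter stretch is shown above, and Ppt1, a thioesterase that removes palmitate, fell in both mutants (-0.62 and -0.70 for Gla, -0.51 and -0.55 for Ppt1), while in TLR4-WT Gla gave -0.45 (adjusted p = 0.0101 from limma) and Ppt1 -0.25 (adjusted p = 0.0834). With median-of-ratios scaling Smpd1, Gla and Ppt1 passed in no genotype. Tpp1, a tripeptidyl peptidase, varied widely inside its groups (37.5 to 90.9 FPKM in TLR4-WT control) and was not called (-0.89, -1.05 and -0.75, SE 0.44).

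The phosphatases and the sialidase rose or did not pass. Acp5 (chr9:22126727-22135711, minus strand), tartrate-resistant acid phosphatase, a marker enzyme of osteoclasts that activated macrophages also make, measured 208, 218 and 243 FPKM in TLR4-WT control and 409, 391 and 513 FPKM after LPS. For Acp5 in TLR4-K730R the libraries held 197, 206 and 206 FPKM and 457, 527 and 441 FPKM, and in TLR4-K810R 150, 144 and 151 FPKM and 569, 644 and 570 FPKM. All LPS libraries were above all control libraries, and the 3 TLR4-K810R libraries were the lowest of the 9 in control and the highest of the 9 after LPS. Acp5 rose by 0.96, 1.22 and 2.0 on the log2 scale (SE 0.11, limma's adjusted p at most 3.65e-06). Its value rests on first exons, since no last exon of Acp5 was listed above 0, and the reads split unevenly over them: the exon at chr9:22130523-22130598 held 379, 92.3 and 116 FPKM in TLR4-WT LPS while the exon at chr9:22131737-22131815 held 28.7, 298 and 395 FPKM. Of 6 osteoclast markers, 5 were listed, and they summed to 30.5 to 33.8, 18.7 to 19.9 and 16.4 to 22.3 FPKM in control and to 47.9 to 101, 52 to 109 and 96.4 to 106 FPKM after LPS, in the order TLR4-WT, TLR4-K730R and TLR4-K810R. Mmp9, which macrophages also make, carried most of the sum. Dcstamp was lowest in TLR4-K810R (1.15 to 1.52 FPKM in control and 1.15 to 1.54 FPKM after LPS, where TLR4-WT held 1.9 to 3.58 and 2.86 to 4.01 FPKM and TLR4-K730R 2.18 to 2.65 and 3.11 to 4.2 FPKM), while Calcr was at 0 in all control libraries and at most 2.58 FPKM after LPS, Ocstamp was at 0 in all but 1 library, and Itgb3 was at 2.99 FPKM or more in each control library and at 1.3 FPKM or less in each LPS library. Their part in the Acp5 difference was not tested. Acp2, the lysosomal acid phosphatase, and Neu1, a sialidase, rose in TLR4-K810R (0.79 and 0.44), while Acp2 gave 0.40 in TLR4-K730R and 0.01 in TLR4-WT, and Neu1 0.26 and 0.07, none of them called. With median-of-ratios scaling both also passed as higher in TLR4-K730R.

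Of the 4 membrane proteins, 3 fell in each genotype on the deposited scale. With median-of-ratios scaling 1, 1 and 0 did in TLR4-WT, TLR4-K730R and TLR4-K810R. The shares of all genes lower were 23.9%, 26.5% and 19.7%, and with scaling 14.2%, 13.5% and 11.7%. Mcoln1 (chr8:3500457-3515232, plus strand), the TRPML1 channel that releases calcium from the lysosome and whose promoter stretch is shown above, measured 27, 36.3 and 33.5 FPKM in TLR4-WT control and 9.11, 13.5 and 16.2 FPKM after LPS. For Mcoln1 in TLR4-K730R the values were 37.6, 40.9 and 37.9 FPKM and 17.8, 13.7 and 16.3 FPKM, and in TLR4-K810R 30.7, 27 and 35.2 FPKM and 17.7, 13.9 and 20.8 FPKM. The control and LPS ranges were separate in each genotype. Mcoln1 fell, with log2 differences of -1.28, -1.24 and -0.80 (SE 0.19, limma's adjusted p at most 0.00286), and with median-of-ratios scaling the call in TLR4-K810R was lost (adjusted p = 0.0322). Lamp1, a main glycoprotein of the lysosomal membrane, went from 849 to 982 FPKM to 532 to 635 FPKM (-0.68, -0.75 and -0.57), and the tetraspanin Cd63 from 444 to 759 FPKM to 220 to 460 FPKM (-0.78, -1.10 and -0.74). With median-of-ratios scaling neither passed. Lamp2, the partner of Lamp1 that also takes part in chaperone-mediated autophagy, was not called (-0.04, -0.51 and -0.42).

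**Figure D2:**
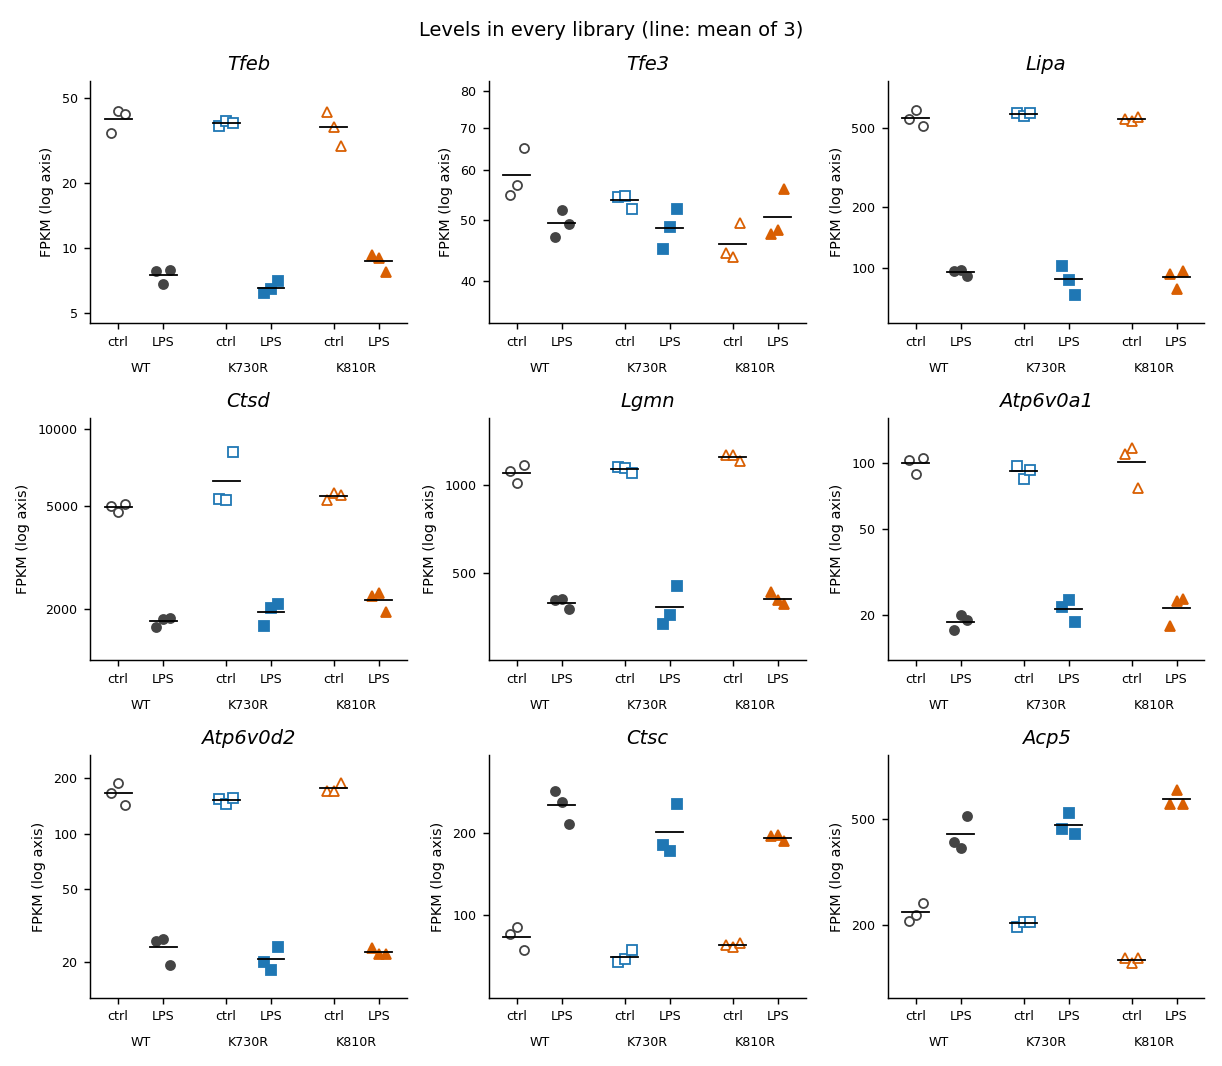
FPKM in every library (log axis) for Tfeb, Tfe3, Lipa, Ctsd, Lgmn, Atp6v0a1, Atp6v0d2, Ctsc and Acp5, open symbols for control and filled for LPS, lines for the mean of 3 libraries. Tfeb, Lipa, Ctsd, Lgmn, Atp6v0a1 and Atp6v0d2 fell in all 3 genotypes with no overlap, Ctsc and Acp5 rose, and Tfe3 stayed between 43.7 and 65.1 FPKM.

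Subunits of the proton pump moved in both directions. Of its 14 subunits with a value, 10 fell and 2 rose in TLR4-WT, 8 fell and 1 rose in TLR4-K730R, and 8 fell and 2 rose in TLR4-K810R, with medians of -0.78, -0.48 and -0.47. With median-of-ratios scaling 6, 5 and 6 were lower and 2 were higher in each genotype (medians -0.45, -0.08 and -0.20). Of all genes, 23.9%, 26.5% and 19.7% were lower on the deposited scale and 10.4%, 9.32% and 9.08% higher. After scaling 14.2%, 13.5% and 11.7% were lower and 15.4%, 15.3% and 12.3% higher, which the pump's higher count was near. The falls were large for single isoforms of the V0 sector. Atp6v0d2 (chr4:19876841-19922605, minus strand), the d isoform of macrophages and osteoclasts, measured 166, 189 and 142 FPKM in TLR4-WT control and 26.2, 26.9 and 19.4 FPKM after LPS. For Atp6v0d2 in TLR4-K730R the libraries held 154, 145 and 156 FPKM and 20, 18.1 and 24.1 FPKM, and in TLR4-K810R 170, 170 and 188 FPKM and 24, 22.3 and 22.1 FPKM. Control and LPS libraries lay far apart. Its log2 differences, -2.73, -2.82 and -2.89 (SE 0.14, limma's adjusted p at most 2.85e-10), were the lowest of the set in each genotype.

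Atp6v0a1 (chr11:101009452-101063719, plus strand), 1 of the large a subunits through which protons pass, held 104, 89.4 and 106 FPKM in TLR4-WT control and 17.1, 20 and 19 FPKM after LPS. For Atp6v0a1 in TLR4-K730R they were 97, 84.8 and 93.5 FPKM and 21.9, 23.6 and 18.7 FPKM, and in TLR4-K810R 110, 117 and 76.7 FPKM and 17.9, 23.2 and 23.9 FPKM. No LPS library came near the control range. Atp6v0a1 fell, with log2 differences of -2.36, -2.06 and -2.16 (SE 0.16, limma's adjusted p at most 2.46e-08). Its total is a sum over 2 first exons whose split differed between control libraries, for example 92, 1.52 and 95 FPKM for the exon at chr11:101011821-101011937 in TLR4-WT. Atp6v0d1, the ubiquitous d isoform, also fell, with log2 differences of -0.91, -0.95 and -0.67. Atp6v0a2 gave -0.22, -0.14 and -0.04 and Tcirg1, the a3 isoform of osteoclasts and macrophages, gave 0.39, 0.49 and 0.61, and neither was called. On the FPKM scale, Atp6v0d2 made up 51.6% to 61.7% of the summed d isoforms in the 9 control libraries and 20.1% to 31.1% in the 9 LPS libraries. Atp6v0a1 made up 12.7% to 33% of the sum of Atp6v0a1, Atp6v0a2 and Tcirg1 in control and 3.35% to 5.8% after LPS. Neither share overlapped between control and LPS libraries, and both are free of the scaling of a library.

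**Figure D3:**
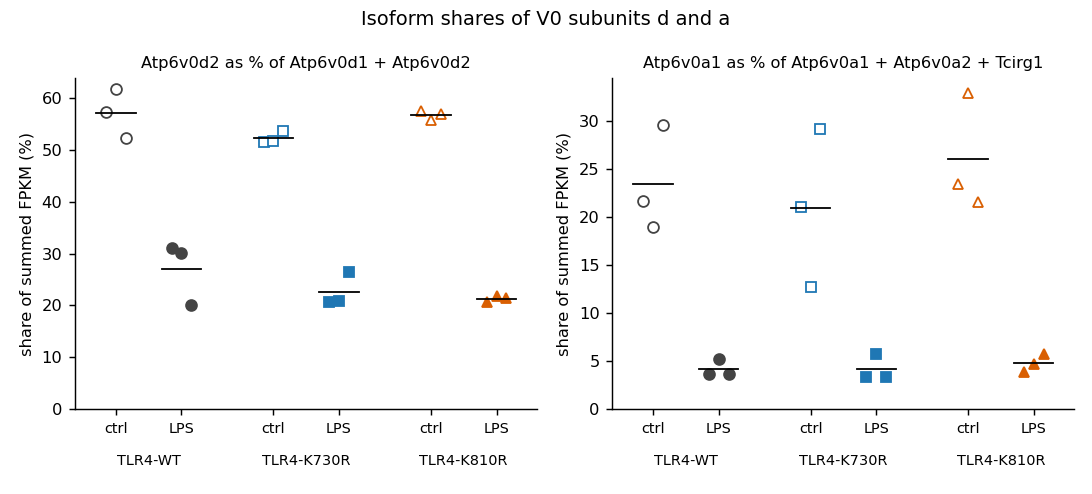
Share of Atp6v0d2 in the summed FPKM of the d isoforms (left) and of Atp6v0a1 in that of Atp6v0a1, Atp6v0a2 and Tcirg1 (right), in percent, for each library, open for control and filled for LPS, lines for means of 3. Control libraries lie between 51.6% and 61.7% (left) and 12.7% and 33% (right), above all LPS libraries, at 20.1% to 31.1% and 3.35% to 5.8%.

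Atp6v0b (chr4:117884326-117887333, minus strand), a proteolipid of the rotating ring, was the V0 subunit that rose. It measured 132, 179 and 173 FPKM in TLR4-WT control and 237, 245 and 208 FPKM after LPS. For Atp6v0b in TLR4-K730R the values were 187, 157 and 169 FPKM and 231, 271 and 222 FPKM, and in TLR4-K810R 158, 171 and 143 FPKM and 287, 270 and 208 FPKM. LPS libraries lay above control libraries in each genotype. The log2 differences were 0.52, 0.49 and 0.68 (SE 0.15), called in TLR4-WT and TLR4-K810R, with limma's adjusted p = 0.0105 in TLR4-K730R. Atp6v0e, the small subunit whose promoter stretch is shown above, fell in TLR4-WT (-0.38) and TLR4-K730R (-0.52), gave -0.23 in TLR4-K810R, and did not pass with median-of-ratios scaling (-0.05, -0.12 and 0.04, the last of opposite sign).

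In the V1 sector 4 of 7 subunits fell in TLR4-WT and TLR4-K810R and 3 in TLR4-K730R. Listed as TLR4-WT, TLR4-K730R, TLR4-K810R, the V1 medians were -0.65, -0.44 and -0.44, beside 23.9%, 26.5% and 19.7% of all genes lower. After median-of-ratios scaling 3, 2 and 3 of the 7 were lower (medians -0.32, -0.04 and -0.16), beside 14.2%, 13.5% and 11.7% of all genes. On either scale 1 of the 7 rose in each genotype. Atp6v1b2 (chr8:69088646-69113711, plus strand), the widely expressed B subunit of the ATP-hydrolysing head, measured 275, 382 and 359 FPKM in TLR4-WT control and 134, 95.4 and 93.3 FPKM after LPS. For Atp6v1b2 in TLR4-K730R the libraries held 381, 279 and 352 FPKM and 101, 124 and 112 FPKM, and in TLR4-K810R 412, 413 and 369 FPKM and 142, 144 and 162 FPKM. The groups stayed apart, with log2 differences of -1.65, -1.57 and -1.41 (SE 0.16). Atp6v1c1 (chr15:38661933-38692446, plus strand), which joins the head to the stalk, held 121, 122 and 120 FPKM in TLR4-WT control and 38.7, 46.7 and 48.7 FPKM after LPS. For Atp6v1c1 in TLR4-K730R they were 126, 114 and 102 FPKM and 45.4, 41.7 and 45.7 FPKM, and in TLR4-K810R 124, 120 and 135 FPKM and 63.5, 50.1 and 57.4 FPKM. These too did not overlap, with log2 differences of -1.42, -1.34 and -1.14 (SE 0.11). Limma's adjusted p for Atp6v1b2 and Atp6v1c1 was at most 3.29e-06 in each genotype. Atp6v1a (chr16:44085402-44139705, minus strand), the catalytic A subunit with the promoter stretch shown above, measured 97.5, 183 and 86.4 FPKM in TLR4-WT control and 24.5, 24.4 and 25.9 FPKM after LPS. For Atp6v1a in TLR4-K730R the values were 109, 162 and 29.4 FPKM and 83.4, 37.2 and 65.9 FPKM, and in TLR4-K810R 170, 182 and 160 FPKM and 40.2, 19.7 and 31.9 FPKM. The control libraries of TLR4-WT and TLR4-K730R were scattered, and those of TLR4-K730R overlapped with its LPS libraries. Atp6v1a fell by 2.17 in TLR4-WT and by 2.50 in TLR4-K810R, and gave -0.44 in TLR4-K730R (SE 0.47), without TLR4-K730R control replicate 2 a value of 0.05.

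Atp6v1e1 (chr6:120794305-120822793, minus strand), a peripheral stalk subunit, rose. It held 223, 262 and 181 FPKM in TLR4-WT control and 313, 295 and 322 FPKM after LPS. For Atp6v1e1 in TLR4-K730R the libraries held 218, 210 and 196 FPKM and 359, 337 and 304 FPKM, and in TLR4-K810R 227, 238 and 172 FPKM and 323, 323 and 308 FPKM. Each LPS library exceeded each control library, with log2 differences of 0.50, 0.68 and 0.59 (SE 0.14, limma's adjusted p at most 0.00773), and without the 2 libraries that stood apart the TLR4-WT value was 0.47 (adjusted p = 0.0226). Atp6v1f fell in all 3 genotypes (-0.65, -0.67 and -0.44) and passed in none with median-of-ratios scaling. Atp6v1h, which regulates the pump, and Atp6v1d, of the central stalk, were not called (0.00, -0.19 and 0.19 and 0.57, -0.43 and -0.30), Atp6v1d with groups as scattered as 13.9, 18.7 and 35.5 FPKM in TLR4-K730R control. Of the accessory subunits, Atp6ap2, also known as the prorenin receptor, fell slightly (-0.35, -0.43 and -0.38) and passed in no genotype with median-of-ratios scaling. Atp6ap1 (chrX:74297097-74304721, plus strand) measured 113, 191 and 147 FPKM in TLR4-WT control and 73.6, 50.7 and 76.7 FPKM after LPS. For Atp6ap1 in TLR4-K730R the values were 95.6, 92.2 and 168 FPKM and 94.8, 73.6 and 119 FPKM, and in TLR4-K810R 157, 104 and 167 FPKM and 123, 85.4 and 89.2 FPKM. Control and LPS overlapped in both mutants but not in TLR4-WT, where it fell by 1.14, a call lost with median-of-ratios scaling (-0.82, adjusted p = 0.0238 from limma). In the mutants the differences were -0.27 and -0.51 (SE 0.27), the first of opposite sign with median-of-ratios scaling (0.13).

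The E-box letters were set beside these differences. Of the 11 genes with a value and CACGTG in a window, 8 fell in each genotype, with median log2 differences of -0.75, -0.75 and -0.70. Of the 26 with a window but without it, 13 fell in each genotype, with medians of -0.50, -0.51 and -0.47. On this deposited scale 23.9%, 26.5% and 19.7% of all genes fell in TLR4-WT, TLR4-K730R and TLR4-K810R. In the same order 1, 0 and 1 of the 11 rose and 3, 3 and 5 of the 26, beside 10.4%, 9.32% and 9.08% of all genes. With median-of-ratios scaling 5, 4 and 4 of the 11 fell and 8 of the 26 in each genotype, beside 14.2%, 13.5% and 11.7% of all genes. Higher with it were 1 of the 11 in each genotype and 3, 6 and 7 of the 26, beside 15.4%, 15.3% and 12.3% of all genes. This is a description of the letters in these windows, and no test was made. The Atp6v0b window holds the core although the gene rose, and the windows of Tfeb, Lipa and Atp6v0a1, which fell strongly, do not, while Atp6v0d2 had no window.

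The rest of the pathway, taken from lists of other lysosomal genes, was counted in the same way. Of 50 further lysosomal genes 45 were tested, of which 22 fell and 2 rose in TLR4-WT, 24 fell and 2 rose in TLR4-K730R, and 18 fell and 2 rose in TLR4-K810R. Their median log2 differences were -0.61, -0.57 and -0.44, beside 23.9%, 26.5% and 19.7% of all genes lower. With median-of-ratios scaling 14 fell in each genotype, with medians of -0.35, -0.29 and -0.19, beside 14.2%, 13.5% and 11.7% of all genes. Galc, which cleaves galactosylceramide, gave -3.25, -3.52 and -2.81 and Sgsh, a sulfatase for heparan sulfate, gave -3.13, -2.93 and -2.50. The phospholipase Pla2g15 (-1.92, -2.27 and -2.23), the sialic acid exporter Slc17a5 (-1.96, -2.0 and -1.91), the cystine exporter Ctns (-1.61, -1.63 and -1.59) and the cholesterol exporter Npc1 (-1.56, -1.63 and -1.38) fell in all genotypes too. Npc2, which hands cholesterol to Npc1, rose (0.75, 0.76 and 0.73), as did M6pr, a receptor that sorts hydrolases to the lysosome (0.44, 0.42 and 0.62), while Igf2r, the other such receptor, fell (-1.59, -1.52 and -0.86). Of 12 other pump genes 6 were tested, of which none was called in TLR4-WT, where 2 had an unadjusted p below 0.05. Tmem9 was called in TLR4-K730R (-1.11) and TLR4-K810R (-1.0) and Rnasek in TLR4-K730R (-0.68), all lower, and none passed with median-of-ratios scaling, with which the list's median in TLR4-WT turned from -0.29 to 0.03. Of 18 genes for nutrient signalling at the lysosome and relatives of Tfeb 16 were tested, with 5, 9 and 6 lower and none higher in TLR4-WT, TLR4-K730R and TLR4-K810R, and with 4, 3 and 4 lower and 2, 1 and 0 higher after median-of-ratios scaling. In TLR4-WT on the deposited scale and in TLR4-K730R with scaling this was near the share of all genes just given. Lamtor3 (-1.0, -1.15 and -0.92) and Lamtor4 (-1.33, -1.54 and -0.88), of the scaffold that holds mTORC1 on the lysosome, and Rragd (-1.77, -0.84 and -1.16), a GTPase that recruits it, fell in all 3 genotypes (Rragd in TLR4-K730R not with median-of-ratios scaling). Mtor itself gave -0.05, -0.44 and 0.13 and was not called. No gene of these 3 lists was called by limma between genotypes, where at most 10 of the 45 further lysosomal genes had an unadjusted p below 0.05. Without the 2 LPS libraries that stood apart, Plbd1 passed as lower than in TLR4-WT after LPS in TLR4-K730R (-1.35) and TLR4-K810R (-0.96) and Lamtor4 as higher in TLR4-K810R (0.85), where 1.66% and 5.94% of all genes passed.

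The comparisons between genotypes address whether the lysine replacements shift these genes, and they gave few calls. In control macrophages none of the 45 was called between TLR4-K730R and TLR4-WT by limma (0.268% of all genes were, and 2 of the 45 had an unadjusted p below 0.05). The smallest p was that of Ctsk, with 175, 193 and 179 FPKM in TLR4-WT and 112, 117 and 130 FPKM in TLR4-K730R, groups that did not overlap (log2 difference -0.60, SE 0.12, limma's adjusted p = 0.0432), followed by Ctsl (-0.50, adjusted p = 0.224). Between TLR4-K810R and TLR4-WT in control 1 gene of the set was called, beside 1.58% of all genes. That gene was Acp5, at 150, 144 and 151 FPKM in TLR4-K810R and 208, 218 and 243 FPKM in TLR4-WT, again with no overlap (log2 difference -0.59, SE 0.11, limma's adjusted p = 0.00742). Leaving out any 1 of the 6 libraries ended the call, with adjusted p of 0.0166 to 0.0398 and differences of -0.63 to -0.52, as did the replicate block (adjusted p = 0.0144 from limma) and leaving out the intensity trend (adjusted p = 0.0119). For Tfeb the 95% interval of the control difference was -0.34 to 0.22 in TLR4-K730R and -0.41 to 0.15 in TLR4-K810R, for Lipa -0.18 to 0.32 and -0.27 to 0.24, and for Atp6v0d2 -0.41 to 0.17 and -0.20 to 0.38, on the log2 scale.

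After LPS none of the 45 genes was called by limma in either mutant, beside 0% of all genes in TLR4-K730R and 0.134% in TLR4-K810R. In TLR4-K730R 5 had an unadjusted p below 0.05 (746 of all 9707 genes did), with Atp6v1a (1.21, SE 0.47) and Atp6v1d (-0.93, SE 0.36) at the ends of the range. In TLR4-K810R 14 did, where 2118 of all genes did, and with median-of-ratios scaling 6 did, where 1888 of all genes did. The median of the 45 was 0.14 where that of all genes was 0.11, and -0.01 beside -0.01 with median-of-ratios scaling. Gusb had the smallest p (0.52, SE 0.10, limma's adjusted p = 0.0169), with all TLR4-K810R libraries above all TLR4-WT libraries, followed by Acp5 (0.45, adjusted p = 0.0506). The calls changed with the libraries that stood apart. Without TLR4-WT LPS replicate 3 alone, Acp5 (0.57, adjusted p = 0.00659 from limma) and Gusb (0.61, adjusted p = 0.00308) were called in TLR4-K810R. The share of all genes called in that fit was not counted, so these calls may follow a general rise. Without both libraries 4 of the 45 genes passed in TLR4-K810R, beside 5.94% of all genes: Gusb (0.61), Acp5 (0.57) and Atp6v0d1 (0.47) as higher and Ctsc (-0.50) as lower. In TLR4-K730R 2 then passed, both as lower, beside 1.66% of all genes: Ctsc (-0.62, with all libraries -0.34) and Gla (-0.58, with all libraries -0.31). The choice of the libraries left out widens such differences, and the number of genes that pass, by its construction. How much of these values came from that choice was not tested. The interval of the Tfeb difference after LPS was -0.45 to 0.11 in TLR4-K730R and -0.10 to 0.47 in TLR4-K810R. The 8 markers of fibroblasts and mesothelium, 7 of them listed and none at 0 throughout a group, summed to 113 to 274 FPKM in TLR4-K810R control and 101 to 121 FPKM after LPS, to 31.3 to 48.2 and 42.7 to 141 FPKM in TLR4-WT, and to 59.5 to 68.2 and 47.3 to 47.7 FPKM in TLR4-K730R. Ctsk, which such cells also express, was 181, 203 and 189 FPKM in TLR4-K810R LPS and 155, 161 and 127 FPKM in TLR4-WT LPS (log2 difference 0.38, limma's adjusted p = 0.108), and the markers' part in that was not tested.

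The size of the LPS response was compared directly. No gene of the set was called between TLR4-K730R and TLR4-WT by limma (0.0412% of all genes were, and 4 of the 45 had an unadjusted p below 0.05), where the widest differences, those of Atp6v1a (1.72, SE 0.67) and Atp6v1d (-1.0, SE 0.51), had large errors. Between TLR4-K810R and TLR4-WT 1 was called, beside 0.124% of all genes. It was Acp5, whose rise was larger in TLR4-K810R by 1.03 on the log2 scale (SE 0.16, 95% interval 0.70 to 1.37, limma's adjusted p = 0.00764), from a lower start and to a higher end. This call held without TLR4-WT LPS replicate 3 and was lost without any other 1 of the 12 libraries, with adjusted p up to 0.0279 and differences of 0.96 to 1.15. It was also lost with the replicate block (adjusted p = 0.0219 from limma) and without the intensity trend (adjusted p = 0.0147). Without both libraries that stood apart the difference was 1.15, with 1 gene of the set passing beside 1.17% of all genes, and in the response of TLR4-K730R none passed, beside 0.309%. The comparisons of a mutant with TLR4-WT in control, after LPS and in the response share libraries, so the 3 Acp5 values are not separate evidence. For Tfeb the difference of responses had an interval of -0.51 to 0.28 in TLR4-K730R and -0.08 to 0.71 in TLR4-K810R, for Lipa -0.55 to 0.16 and -0.43 to 0.28, and for Atp6v0d2 -0.50 to 0.32 and -0.57 to 0.25.

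**Figure D4:**
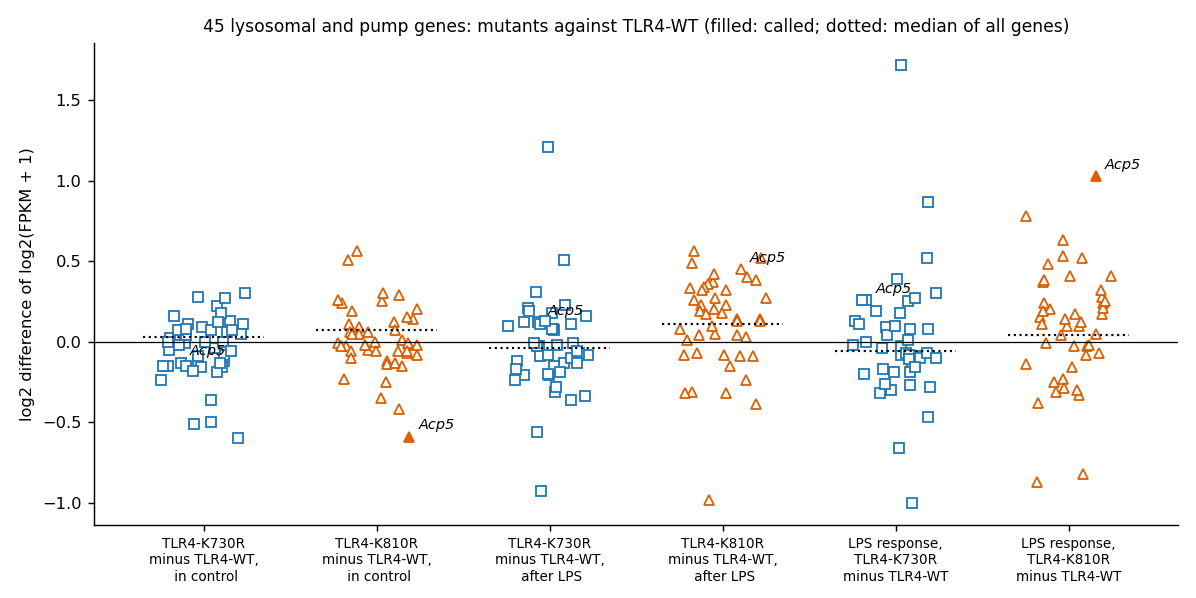
Log2 differences of the 45 genes between each mutant and TLR4-WT, in control, after LPS and in the LPS response, 1 point per gene, filled where called, with dotted lines at the median of all genes tested. Acp5 is the filled point in TLR4-K810R, at -0.59 in control and 1.03 in the response, and the high open point of TLR4-K730R in the response is Atp6v1a (1.72).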

How the data were processed

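RNA was isolated from thioglycolate-elicited mouse peritoneal macrophages with a column kit and sequenced on an Illumina platform, 3 libraries in each of 6 groups. The authors deposited FPKM values for transcript events (first exons, last exons, splicing events), 80071 to 90401 rows per library. The aligner and the annotation are not given in the sources used here, and the submitters' processing notes name the build hg18, whereas the gene numbers are mouse and the coordinates match GRCm38. Read counts were not used here, so depth is unknown and no counting interval can be given. FPKM is relative to each library's total, so a few abundant genes can shift all others.

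From the deposited FPKM, each gene was given the sum over its first exons or that over its last exons, whichever was larger in that library, using events on its strand that overlap it in GENCODE vM21. For 26 of the 45 genes both sums lay within a ratio of 1.1. Events off the gene, 5.982% of first-exon and last-exon FPKM, were dropped. Glb1 had 0 rows and Atp6v0c had 4 rows, all on the other strand, and both are not analysed here. Splicing events were not used here.

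The 9707 genes that reached 1 FPKM in 3 or more of the 18 libraries entered limma 3.58.1 (R 4.3.3) on log2(FPKM + 1), with all groups in one fit and an intensity trend. Fold changes on this scale understate the change of low genes. Genes were called at a Benjamini-Hochberg adjusted p below 0.01, two-sided, over all genes and within each of 9 comparisons. The code was tested on simulated data. Python 3.11.15, pandas 2.3.3 and matplotlib 3.10.9 served for tables and plots.

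The 47 genes and the other gene lists were chosen with earlier results of these data known, and the lists of other genes give no independent support. Every gene of the set was accounted for, and values of every library were printed for Tfeb, Tfe3, genes called between genotypes, genes called in all 3 LPS comparisons with an absolute log2 difference of at least 1 in each (at most 20), and the largest rise and fall in each role. Alternatives were a pseudocount of 0.1, no filter, median-of-ratios scaling, no trend, a replicate block, a threshold of 0.05, first-exon or last-exon sums alone, all rows of a gene number, leaving out each library and, added after seeing the data, leaving out together TLR4-WT LPS replicate 3 and TLR4-K730R LPS replicate 3.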

Additional observations from a re-analysis of the deposited data

Results flagged for a closer look

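The LPS response of Acp5 differed between TLR4-K810R and TLR4-WT macrophages by 1.03 on the log2 scale, by the test of the difference of responses in limma (SE 0.16, 95% interval 0.70 to 1.37, adjusted p = 0.00764). All 3 TLR4-K810R libraries lay below all TLR4-WT libraries in control and above all of them after LPS. Leaving out single libraries gave 0.96 to 1.15, with adjusted p of 0.00135 to 0.0279 from limma, and the call held in 1 of those 12 fits, the one without TLR4-WT LPS replicate 3. Of the 7 other settings with a value for Acp5, 5 kept the call, and it was lost with the replicate block (adjusted p = 0.0219 from limma) and without the intensity trend (adjusted p = 0.0147).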

How the results depend on the processing

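The total of genes called after LPS stayed within 1.5 times of that reported under each alternative run, but its split did not: with median-of-ratios scaling the lower genes went from 26 to 17, from 27 to 16 and from 27 to 17, and the higher ones from 3 to 7 in TLR4-K730R. Leaving out 1 library gave totals of 24 to 28 genes in TLR4-WT, 28 to 31 in TLR4-K730R and 27 to 31 in TLR4-K810R. Of 438 LPS differences of the 19 genes with printed values under other settings, 422 kept direction and side of the threshold, 9 lost the call, 3 gained it and 4 changed sign. Of 342 with 1 library left out, 325 kept both, 15 lost the call and 2 changed sign. Most of the 19 genes were printed because their LPS differences were large and called in all 3 genotypes. That choice favours stable calls, so these counts do not describe the whole set. Atp6v1e1 lost its call in 9 of 42 fits and Atp6v0b in 7 of 42.

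The sign changed with median-of-ratios scaling for Tfe3 in TLR4-WT (0.08) and TLR4-K730R (0.26) and for Atp6ap1 in TLR4-K730R (0.13, leaving out 1 library -0.44 to 0.00), for Atp6v1a in TLR4-K730R leaving out 1 library (-1.16 to 0.05), and with last-exon sums alone for Ctsc in TLR4-K810R (-0.20). The control difference of Tfeb, not called, turned to 0.13 in TLR4-K730R and 0.10 in TLR4-K810R with last-exon sums alone, and leaving out 1 library gave -0.17 to 0.01 and -0.26 to 0.00. Without both LPS libraries that stood apart, chosen after seeing the data, 2 genes were called after LPS between TLR4-K730R and TLR4-WT and 4 between TLR4-K810R and TLR4-WT, where 0 were reported, a choice that widens these differences by its construction. The other causes were not tested.

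Between genotypes, an adjusted p below 0.05 gave 1 gene in TLR4-K730R control (Ctsk) and 1 in TLR4-K810R after LPS (Gusb), where leaving out 1 library gave 0 to 2. The Acp5 calls in TLR4-K810R control and in the response difference went to 0 without the intensity trend, with the replicate block, and with last-exon sums alone, for which Acp5 has no value. Leaving out 1 library gave 0 in control (0 to 0) and 0 to 1 in the response.

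Libraries with the same replicate number in different groups did not deviate together (correlations of -0.32 to 0.0993, median -0.0216, over 45 pairs). Such correlations cannot exclude that same-numbered libraries share an animal or a day of preparation, which the sources used here do not give. With the replicate block 29, 30 and 31 genes were called after LPS in TLR4-WT, TLR4-K730R and TLR4-K810R, and 0 in each comparison between genotypes. Without read counts, the depth behind a low value such as Manba after LPS is unknown.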

Other observations

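Of the markers of other leukocytes, 5 of 6 for mast cells summed to at most 5.25 FPKM in a library, 2 of 5 for eosinophils to at most 2.79 FPKM and 4 of 6 for dendritic cells to at most 5.76 FPKM, and the rest had no row and cannot add to these sums. Of 6 neutrophil markers 5 were listed, summing to 58.7 to 82.7 FPKM in the control libraries and to 204 to 281 FPKM after LPS. S100a8 made most of the difference (22.1 to 45.1 and 165 to 239 FPKM), and Csf3r overlapped (26.1 to 48.6 and 37 to 67.4 FPKM), while Ly6g, Mpo and S100a9 were at most 2.23 FPKM in any library.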
